A study of Mus musculus with 61 samples.

Results

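The immunoproteasome is a form of the proteasome in which 3 catalytic subunits are exchanged, and 8 of the 55011 genes in the count table belong to the comparison made here. Of these, 5 are immunoproteasome genes: Psmb8, Psmb9 and Psmb10, which encode the exchanged catalytic subunits, and Psme1 and Psme2, which encode the alpha and beta chains of the PA28 activator. The other 3, Psmb5, Psmb6 and Psmb7, encode the constitutive catalytic subunits whose places they take. They were chosen by symbol, and each symbol matched 1 row of the table. Their transcript levels were described in whole skeletal muscle of mice over 61 libraries in 22 groups, made from polyA RNA.

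The proteasome is a barrel-shaped protease that degrades ubiquitin-tagged proteins, and its core is capped by regulators such as the 19S particle. In cells exposed to interferon-gamma, newly assembled cores take up Psmb8 (also known as LMP7) in place of Psmb5, Psmb9 (LMP2) in place of Psmb6 and Psmb10 (MECL-1) in place of Psmb7. The immunoproteasome favours cleavage after residues that fit the groove of class I MHC molecules, and PA28 opens the core's gate. Leukocytes carry much of it without stimulation, whereas muscle fibres at rest carry mainly the constitutive form.

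The groups came from 6 experiments, with wild-type quadriceps and tibialis anterior counted apart. Wild-type C57BL/6J mice gave quadriceps and tibialis anterior, from the same animals, when sedentary or 1, 2 or 7 days after an acute exercise bout, with 3 mice per group. In the acute experiment, Foxp3DTR- and Foxp3DTR+ mice (DTR- and DTR+) all received diphtheria toxin, and quadriceps was taken when sedentary (3 DTR-, 2 DTR+), at day 1 after exercise (3 of each) or at day 7 (2 of each). The DTR+ allele is Foxp3-IRES-GFP.hDTR, which puts the human diphtheria toxin receptor under the Foxp3 gene. Toxin therefore removes Foxp3-expressing regulatory T cells throughout the body, and the DTR- controls shared the toxin but not the receptor. In the training experiment, toxin-treated DTR- and DTR+ mice were sedentary or trained for 2 weeks (3 per group). A further 6 trained, toxin-treated DTR+ mice received an IgG or an antibody to interferon-gamma (anti-IFN-gamma), 3 of each. The last experiment gave IgG or anti-IFN-gamma to sedentary C57BL/6JN mice of 24 months, 2 of each, and its muscle is not named in the sources used here. Where no label ties a library to an animal, p-values measure the spread between libraries, which may be partly technical.

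Library totals ran from 3359683 to 14445336 counts, so that 3 counts corresponded to 0.208 to 0.893 CPM, the counts scaled to the library's total. Muscle fibre markers summed to between 174129 and 270839 CPM in every library, as the tissue label implies. Foxp3 had 0 counts in 41 of the 61 libraries and at most 9, and Ifng had 0 in 53 and at most 9, so neither the loss of regulatory T cells nor the cytokine could be checked on its own transcript. In the acute experiment the sedentary and day 7 DTR+ libraries stood apart: 20% to 23.5% of their counts were mitochondrially encoded, against 7.9% to 12% in the DTR- libraries of those times. They also held 14701 to 15306 detected genes, against 16508 to 18494. At day 1 both genotypes had 5.4% to 6.6% and 21211 to 26596 genes. Reads from fewer cells of a type and less RNA per cell cannot be told apart in whole tissue, here or in any result that follows.

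In the GENCODE vM21 annotation of GRCm38, Psmb8 lies at chr17:34197721-34201454 on the plus strand and Psmb9 at chr17:34181987-34187764 on the minus strand, both in the class II part of the MHC. Between them lies Tap1, which encodes a chain of the peptide transporter, at chr17:34187553-34197225. Psmb9 and Tap1 run in opposite directions and their exons overlap by 212 bases, 5.8% of the exonic length of Psmb9. Psme1 (chr14:55578123-55581529, plus strand) and Psme2 (chr14:55587441-55591113, minus strand) are near neighbours, and Psmb10 lies at chr8:105935735-105938444. The constitutive genes are at chr14:54614119-54618022 (Psmb5), chr11:70525367-70527858 (Psmb6) and chr2:38588036-38644087 (Psmb7). The exons of Psmb7 overlap Nek6 by 405 bases, 11.8% of their length, and those of Psme1 overlap Emc9 by 14 bases. Whether counting used strand is not given in the sources used here, so reads in those overlaps are uncertain. Psme2b, a near copy of Psme2, had 367 counts in all libraries together and never more than 2.6 CPM. The pseudogenes of Psmb5, Psmb6 and Psmb7 had at most 22 counts each.

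The promoters of 3 members that moved together are shown because their genes are induced by interferon, yet their sequences differ in the interferon motifs they hold. Each window runs from 250 bases before to 50 bases after a RefSeq start on GRCm38.p6, 5′ to 3′ on the gene's strand, with motif matches in capitals. The patterns searched were read on both strands: GAAANNGAA, a spacing found in interferon-stimulated response elements, and TTCNNNGAA, the gamma-activated site, which reads the same on both strands. Neither pattern contains the other. All 3 windows lie inside the GENCODE spans given above, which begin upstream of these RefSeq starts. Bases before the GENCODE starts of these 3 genes were not searched.
Psmb8, chr17:34197945-34198244, plus strand: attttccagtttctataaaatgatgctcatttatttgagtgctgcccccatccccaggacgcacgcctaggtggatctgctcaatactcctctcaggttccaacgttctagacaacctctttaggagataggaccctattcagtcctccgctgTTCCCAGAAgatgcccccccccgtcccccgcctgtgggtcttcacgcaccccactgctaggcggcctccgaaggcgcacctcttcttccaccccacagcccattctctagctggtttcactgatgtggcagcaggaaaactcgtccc
Psme1, chr14:55578244-55578543, plus strand: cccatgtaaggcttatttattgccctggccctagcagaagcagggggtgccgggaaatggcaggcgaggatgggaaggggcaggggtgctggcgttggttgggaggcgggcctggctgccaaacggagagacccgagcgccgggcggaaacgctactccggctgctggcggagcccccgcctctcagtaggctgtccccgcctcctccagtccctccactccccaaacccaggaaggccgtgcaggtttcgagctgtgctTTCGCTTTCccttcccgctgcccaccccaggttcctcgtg
Psmb9, chr17:34187281-34187580, minus strand: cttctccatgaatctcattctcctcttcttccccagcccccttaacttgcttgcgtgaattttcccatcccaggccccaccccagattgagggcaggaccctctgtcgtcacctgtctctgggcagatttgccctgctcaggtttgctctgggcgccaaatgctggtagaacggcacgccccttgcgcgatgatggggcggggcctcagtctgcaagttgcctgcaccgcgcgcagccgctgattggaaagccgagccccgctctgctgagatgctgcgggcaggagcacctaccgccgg
In Psmb8 the capitals mark the only gamma-activated site pattern in these windows, with its first base at -97 from the start. In Psme1 they mark a GAAANNGAA match on the other strand, with its first base at 11 in the transcribed region. Psmb9 had neither pattern in this window, nor did the windows of Psmb10, Psme2, Psmb5 and Psmb6. Of 32851 mouse promoter windows of this length, 8.56% held the first pattern, 8.30% the gamma-activated site pattern and 1.07% both. The Psmb9 window shares 275 bases with that of Tap1 (chr17:34187306-34187605, plus strand), so the sequence printed for Psmb9 is also most of the Tap1 promoter, read on the opposite strand. A match of these letters is a description of the sequence and not of binding.

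All 8 genes had counts in all 61 libraries, the lowest being 4 counts of Psmb9. Group means of Psmb8 spanned 29.6-fold, from 5.50 CPM in wild-type quadriceps at day 1 to 163 CPM in DTR+ quadriceps at day 7. Psmb9 spanned 20.5-fold (2.19 to 45.0 CPM), Psme2 9.13-fold (17.3 to 158 CPM), Psmb10 5.89-fold (10.5 to 61.8 CPM) and Psme1 3.45-fold (24.7 to 85.1 CPM). Among the constitutive genes the span was 1.56-fold for Psmb5 (87.9 to 137 CPM), 1.92-fold for Psmb7 (73.4 to 141 CPM) and 3.04-fold for Psmb6 (271 to 823 CPM). DTR+ quadriceps at day 7 had the highest mean of all 5 immunoproteasome genes and of Psmb6. Replicate 3 sets much of these means: replicate 2 had 70.5 CPM of Psmb8, and its 13.8 CPM of Psmb9, 28.8 of Psmb10 and 52.3 of Psme1 were below the means of trained DTR+ muscle (30.6, 33.3 and 67.7 CPM). Trained DTR+ muscle came next for Psmb8, Psmb9, Psmb10 and Psme1, followed by trained DTR+ muscle with IgG for Psmb8, Psmb9, Psmb10 and Psme1. Most neighbours in that order were not separated. Of the 21 pairs of neighbouring groups, the libraries overlapped in 18 for Psmb8, in 21 for Psmb9 and in 20 each for Psmb10, Psme1 and Psme2. For Psmb8 the breaks lay below sedentary DTR+ muscle of the acute experiment (39.5 ± 4.20 CPM, SD, n = 2), below aged muscle with IgG (27.7 ± 0.302, n = 2) and below DTR+ muscle at day 1 (22.5 ± 2.67, n = 3).

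**Figure D1:**
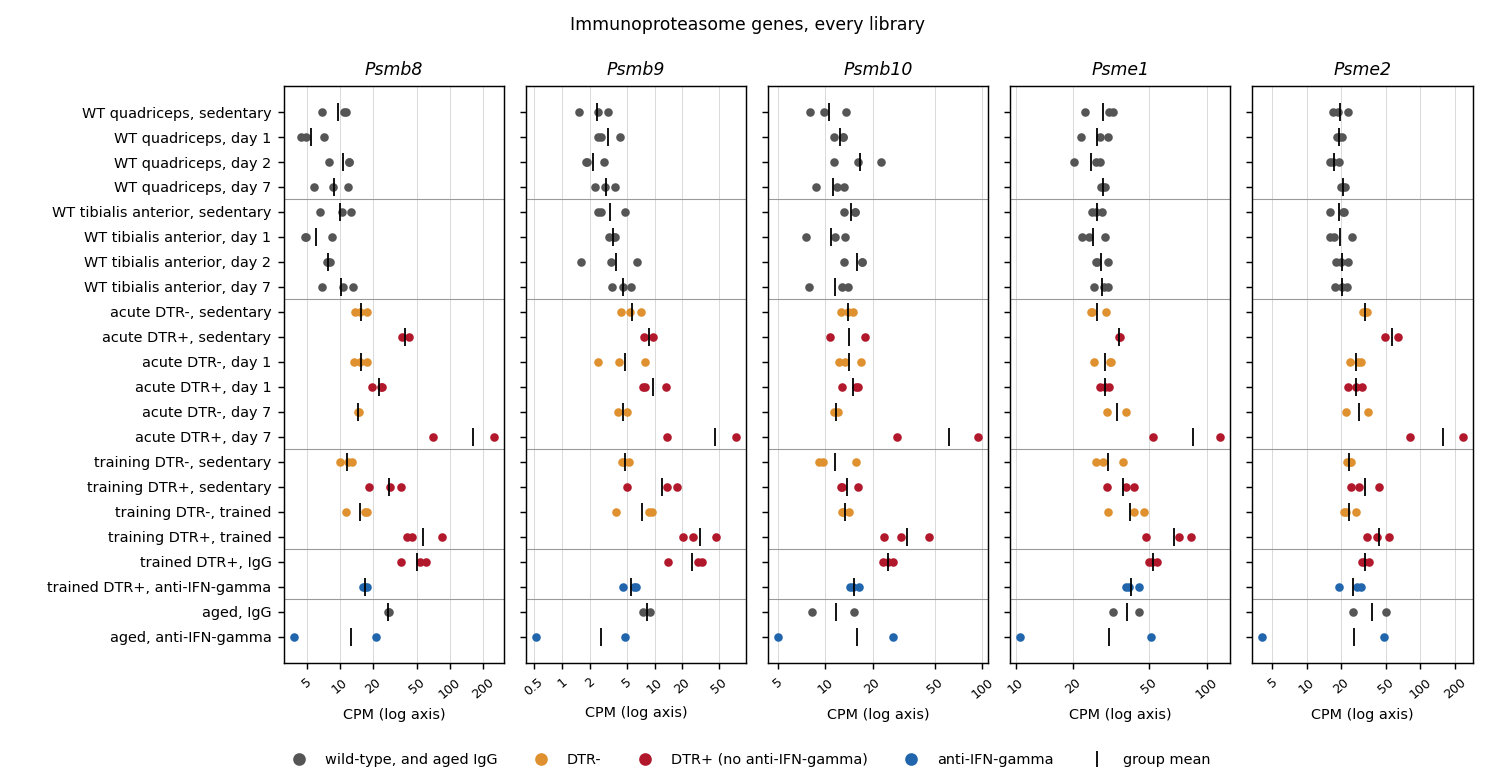
Levels of Psmb8, Psmb9, Psmb10, Psme1 and Psme2 in CPM (log axis) in the 22 groups; each point is a library and each tick a group mean. DTR+ muscle at day 7 has the highest group mean of each gene, with Psmb8 at 70.5 and 255 CPM, and all 24 wild-type libraries lie between 4.41 and 13.1 CPM of Psmb8.

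Per kilobase of exon, with the union of a gene's exons as its length, resting wild-type quadriceps held mostly constitutive transcripts. Psmb6 had a mean level of 151 CPM per kilobase there, Psmb5 131 and Psmb7 34.7, against 13.0 for Psme1, 11.2 for Psme2, 6.15 for Psmb10, 2.87 for Psmb8 and 0.648 for Psmb9. In DTR+ quadriceps at day 7 the order changed: Psmb6 stood at 439 CPM per kilobase and Psmb5 at 123, and then came Psme2 at 89.8, Psmb8 at 48.1, Psme1 at 38.5 and Psmb10 at 36.2. Psmb7 followed at 30.6 and Psmb9 at 12.3. Such orders of genes depend on the length given to each gene. For Psme2 the union of exons is 1764 bases and the longest transcript 962, while for Psmb5 both are 899. Psmb8 and Psmb10, both below Psmb7 at rest, were above it in the mean of that group through replicate 3 (75.4 and 55.6 against 29.4 CPM per kilobase). In replicate 2 both were below it (20.9 and 16.9 against 31.7).

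Exercise alone moved none of the 8 genes past the test in wild-type muscle. The share of all tested genes called in either direction (edgeR's quasi-likelihood test, adjusted p under 0.05) was itself small: 0.582% at day 1, 0.299% at day 2 and 0.214% at day 7 in quadriceps. In tibialis anterior it was 0.0552%, 0.0630% and 0.0158%. Psmb8 in quadriceps at day 1 had 7.22, 4.41 and 4.87 CPM against 10.9, 11.3 and 6.88 CPM in sedentary mice. Its groups overlapped, and its log2 fold change was -0.79 ± 0.33 (SE), with an adjusted p of 0.485 by edgeR. In tibialis anterior at day 1 Psmb8 was at 4.83, 4.91 and 8.51 CPM against 10.5, 12.7 and 6.61 CPM, a log2 fold change of -0.66 ± 0.33 (edgeR, adjusted p = 0.630). Psmb10 in quadriceps at day 2 had 11.4, 16.1 and 22.5 CPM against 7.98, 9.86 and 13.6 CPM, a log2 fold change of 0.68 ± 0.27 with an adjusted p of 0.456 by edgeR. In quadriceps, Psmb8 at day 1 and Psmb10 at day 2 were the 2 values with an unadjusted p under 0.05 in the 6 comparisons with sedentary mice, and DESeq2 called 0 in each. Sedentary quadriceps and tibialis anterior did not separate any of the 8 either (0 called by edgeR and by DESeq2, 0 with an unadjusted p under 0.05), while 1.30% of all genes were called between the muscles. Of the other proteasome and antigen-presentation genes listed, the call that passed was Psmd11 of the 19S regulator, higher in quadriceps at day 1.

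In sedentary mice given toxin, DTR+ quadriceps held more Psmb8, Psme1 and Psme2 than DTR- quadriceps. Psmb8 was at 42.5 and 36.5 CPM in the 2 DTR+ libraries and at 17.5, 13.6 and 15.3 CPM in the 3 DTR- libraries. Both DTR+ values were above all 3 controls, and the log2 fold change was 1.66 ± 0.33 (edgeR, adjusted p = 8.15e-04). Psme2 was at 64.0 and 48.9 CPM against 32.5, 34.0 and 31.3 CPM, a log2 fold change of 1.10 ± 0.29 (edgeR, adjusted p = 0.00800). Psme1 was at 34.6 and 35.0 CPM against 25.2, 24.8 and 29.9 CPM, a log2 fold change of 0.70 ± 0.24 (edgeR, adjusted p = 0.0391). These groups did not overlap either, but the call for Psme1 was lost without any 1 of the 5 libraries and that for Psme2 without DTR+ replicate 2. Without scaling factors Psme1 (0.39) and Psme2 (0.79) were not called. So 3 of 5 immunoproteasome genes were called higher in a comparison where 12.2% of all genes were. Psmb9 had a log2 fold change of 0.93 ± 0.53 and Psmb10 of 0.35 ± 0.35, with adjusted p-values of 0.209 and 0.492 by edgeR.

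Psmb6 was the constitutive gene that moved with them: 810 and 745 CPM in sedentary DTR+ mice against 483, 426 and 389 CPM in DTR- mice. No DTR+ value fell within the DTR- range, and the log2 fold change was 1.15 ± 0.14 (edgeR, adjusted p = 6.58e-06). Psmb5 and Psmb7 had log2 fold changes of 0.12 ± 0.15 and 0.25 ± 0.15 with scaling factors, although their mean CPM was lower in DTR+ mice (107 against 122, and 95.5 against 99.3), because the factors also weigh the rest of each library. All 11 other subunits of the 20S core were called higher, with a median log2 fold change of 0.76 against -0.06 over all genes. Without scaling factors all 11 were again higher, but 6 were called. Over all genes the split of calls was 1731 higher and 2070 lower with the factors and 882 higher and 3084 lower without them, and the median of all genes moved to -0.36. Of 8 assembly and activator genes, 3 were called higher. Pomp, the core's maturation chaperone, rose by 1.47 ± 0.18, Psmg1 by 1.56 and Psme4 by 0.74 on the log2 scale. Of 18 genes of the 19S regulator, 8 were called higher and 4 lower with scaling factors, and 2 higher and 7 lower without them.

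The class I pathway was split in the same mice. B2m, the light chain of class I MHC, had a log2 fold change of 0.84 ± 0.30 (edgeR, adjusted p = 0.0421), whereas Tapbp, which bridges the transporter and class I MHC, fell by 1.26 and the chaperone Pdia3 by 0.64. Tap1 (0.89), Irf1 (0.30) and Nlrc5 (1.46 on the log2 scale) did not pass the test. Without scaling factors 0 of 9 peptide-loading genes were called higher and 3 lower. Leukocyte markers were not higher: Ptprc, Laptm5, Coro1a and Cytip summed to 7.86 to 10.6 CPM in DTR+ and 10.6 to 21.9 CPM in DTR- mice, with none of the 4 at 0 in the DTR+ libraries. T and NK cell markers summed to 7.04 to 8.98 against 5.13 to 6.67 CPM, with Cd3d, Lck, Cd8a, Cd4, Nkg7 and Gzmb at 0 in both DTR+ libraries. Macrophage markers summed to 205 to 237 against 196 to 293 CPM. With mitochondrially encoded genes left out, a setting added after seeing the data, the same 3 immunoproteasome genes and Psmb6 passed. Psmb8 was then at 1.64 on the log2 scale. That setting only removes rows and cannot show what the high mitochondrial share of the DTR+ libraries means. The part of that share in these differences was not tested.

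At day 1 after exercise no member passed the test between genotypes. Psmb8 was at 19.5, 23.7 and 24.4 CPM in DTR+ mice and at 13.4, 17.8 and 15.3 CPM in DTR- mice. The groups did not overlap, but the log2 fold change of 0.57 ± 0.30 did not pass (edgeR, adjusted p = 1.00), in a comparison with 0% of genes called. Psmb9 was at 7.88, 7.46 and 13.3 CPM against 2.45, 7.89 and 4.17 CPM, which overlap, with a log2 fold change of 1.01 ± 0.47 (edgeR, adjusted p = 1.00). Psmb10, Psme1 and Psme2 had log2 fold changes of 0.09, 0.03 and -0.01. Among the 8, Psmb9 alone had an unadjusted p under 0.05, and DESeq2 called 0; over all genes edgeR called 0 with 281 at an unadjusted p under 0.05, and DESeq2 called 0.

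By day 7 all 5 immunoproteasome genes were higher in DTR+ than in DTR- quadriceps. Psmb8 was at 70.5 and 255 CPM in DTR+ mice against 14.5 and 15.0 CPM in DTR- mice, a log2 fold change of 3.74 ± 0.40, or 13.4-fold (edgeR, adjusted p = 2.18e-06). Psmb9 was at 13.8 and 76.2 CPM against 5.05 and 4.01 CPM, a log2 fold change of 3.61 ± 0.62 (edgeR, adjusted p = 2.44e-04). Psmb10 was at 28.8 and 94.7 CPM against 12.1 and 11.3 CPM, a log2 fold change of 2.69 ± 0.40 (edgeR, adjusted p = 5.3e-05). In each, DTR+ replicate 3 was the higher, and both were above the controls. The 2 activator genes behaved alike in direction: Psme2 was at 81.6 and 235 CPM against 22.4 and 34.8 CPM, and Psme1 at 52.3 and 118 CPM against 37.8 and 30.1 CPM. Their log2 fold changes were 2.73 ± 0.34 and 1.62 ± 0.27 (edgeR, adjusted p = 1.19e-05 and 1.84e-04). Thus 5 of 5 were called higher, where 11.3% of all genes were.

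The size of the day 7 difference rested on DTR+ replicate 3, and its call did not. Without that library the log2 fold changes were 2.52 for Psmb8, 1.90 for Psmb9, 1.58 for Psmb10, 0.91 for Psme1 and 1.76 for Psme2, and each was still called by edgeR, where the lone DTR+ library is taken to vary like the other groups. Without replicate 2 they were 4.37, 4.35 and 3.29 for Psmb8, Psmb9 and Psmb10. With mitochondrially encoded genes left out, Psmb8 was at 3.73.

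**Figure D2:**
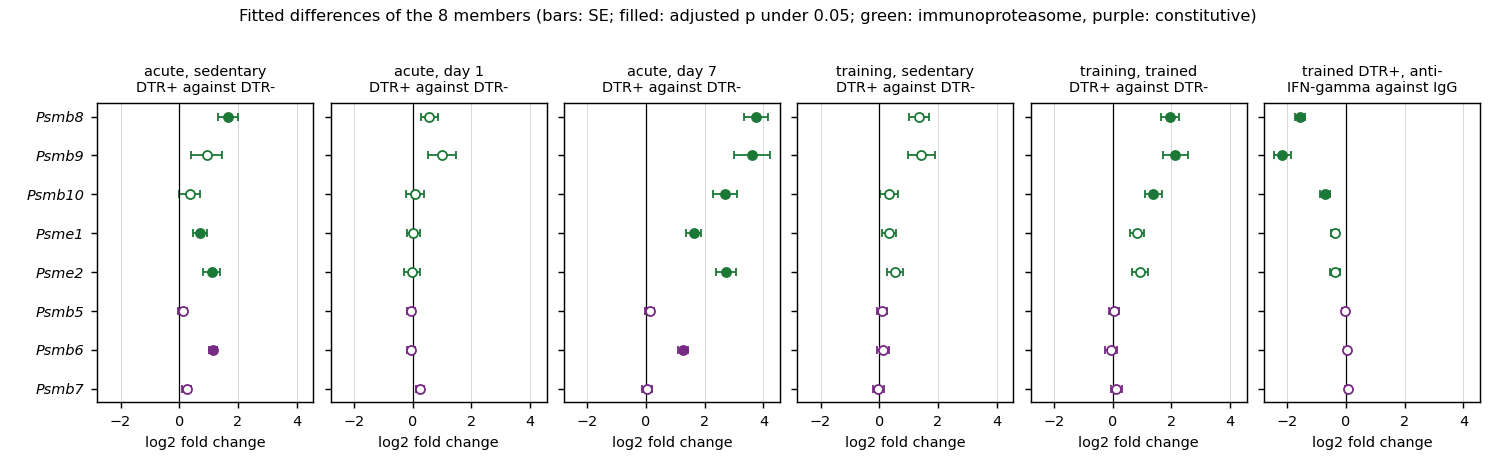
Log2 fold changes with their standard errors for the 8 genes in 6 comparisons; filled points have an adjusted p under 0.05 (edgeR), green marks immunoproteasome and purple constitutive genes. At day 7 all 5 immunoproteasome genes and Psmb6 are filled, from 1.26 (Psmb6) to 3.74 (Psmb8), and under anti-IFN-gamma Psmb8, Psmb9 and Psmb10 are filled below 0.

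Constitutive genes at day 7 again split. Psmb6 was at 765 and 880 CPM in DTR+ mice against 394 and 443 CPM in DTR- mice, a log2 fold change of 1.26 ± 0.16 (edgeR, adjusted p = 1.09e-05), and its libraries did not overlap. Psmb5 was at 94.1 and 127 CPM against 128 and 120 CPM, and Psmb7 at 108 and 101 CPM against 145 and 105 CPM. Both overlapped, with log2 fold changes of 0.13 ± 0.16 and 0.03 ± 0.17. The rest of the core rose with Psmb6: all 11 other 20S genes were called higher, from 0.59 (Psmb4) upward and with a median of 1.12 against -0.10 over all genes. Psmb2, Psma2 and Psmb1, noncatalytic subunits, rose by 1.39, 1.29 and 1.19. Without scaling factors 10 of the 11 were called and with the trend on gene length and GC removed 7 were. Over all genes, 1615 were called higher and 1995 lower with the factors and 1015 and 2991 without, with the median of all genes moving from -0.10 to -0.39.

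Around the core, Pomp rose by 2.00 ± 0.21, Psme4 by 1.12 and Psmg1 by 1.08 on the log2 scale, and 4 of 8 assembly and activator genes were called higher. In the 19S regulator 9 of 18 were called higher, led by Psmd14 (1.30), Psmd12 (1.10) and Psmc6 (0.98), and 2 lower, Psmd2 (-0.73) and Psmd1 (-0.55). Genes of peptide loading and interferon-gamma signalling were also called higher. B2m rose by 2.47 ± 0.35 (edgeR, adjusted p = 3.58e-05), Tap1 by 3.54 ± 0.58 (adjusted p = 1.5e-04) and Tapbpl, a peptide editor, by 2.42, and those were the 3 of 9 peptide-loading genes called. Irf1, a transcription factor and an activator of Psmb9 and Tap1, rose by 2.51 ± 0.49, and Nlrc5, the class I transactivator, by 5.27 ± 1.13. Ifngr2 was called lower. Without scaling factors 5 of the 18 19S genes were called higher and 2 lower, and 3 peptide-loading genes higher and 2 lower.

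**Figure D3:**
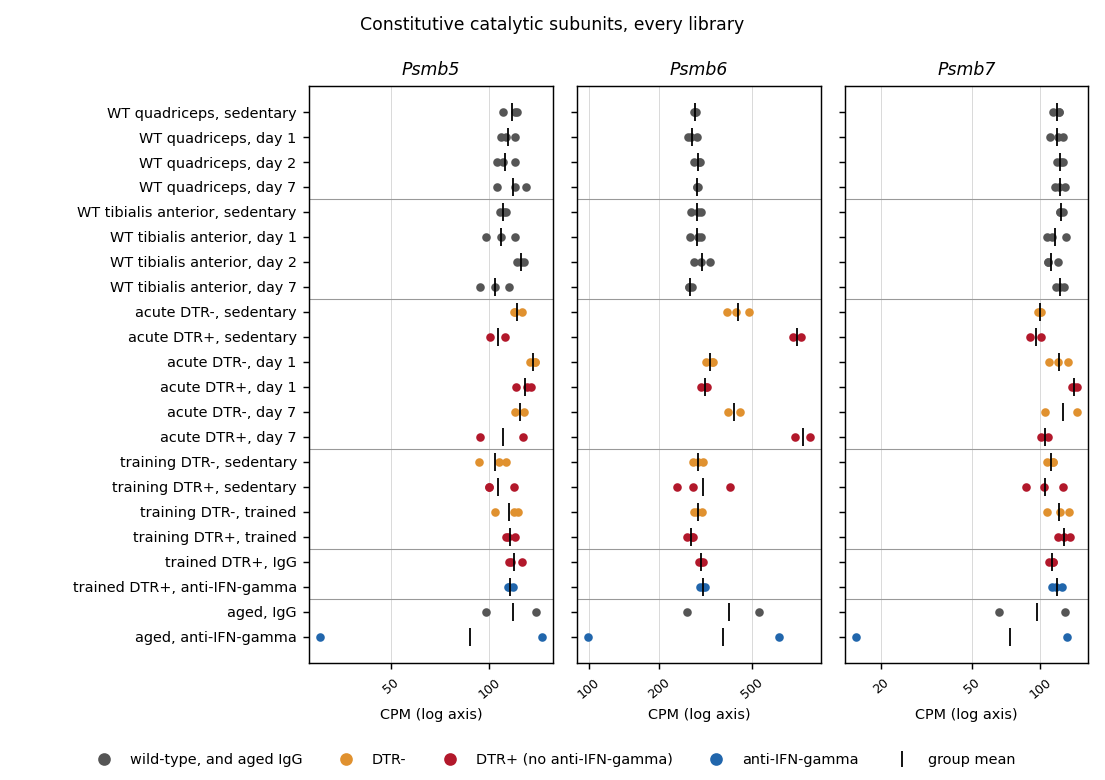
Levels of Psmb5, Psmb6 and Psmb7 in CPM in the 22 groups; each point is a library and each tick a group mean. Psmb6 is at 745 to 880 CPM in the sedentary and day 7 DTR+ libraries of the acute experiment and reaches 648 CPM in aged muscle with anti-IFN-gamma. Psmb5 has no group mean above 137 CPM.

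T and NK cell markers moved with the day 7 difference. They summed to 25.1 and 69.1 CPM in the DTR+ libraries, in the order of their Psmb8 levels, with 0 of the 10 at 0, against 4.01 to 7.46 CPM in DTR- mice. Of 7 tested, 5 were called higher. Macrophage markers summed to 291 and 527 CPM against 210 to 248 CPM, with 4 called higher and 1 lower. The general leukocyte markers were at 22.3 CPM in DTR+ replicate 2, below both controls, and at 51.5 CPM in the other DTR+ library, against 26.0 to 29.0 CPM. Red blood cell markers summed to 187 to 835 against 122 to 300 CPM. The part of these cells in the rise was not tested.

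Over time, the immunoproteasome genes did not pass the test in DTR- quadriceps. At day 1 against sedentary 0 of the 5 immunoproteasome genes were called, and Psmb6 alone was called lower, by a log2 fold change of -0.64 ± 0.13 (edgeR, adjusted p = 0.00168), where 8.24% of all genes were called lower. It was at 341, 335 and 317 CPM against 483, 426 and 389 CPM. At day 7 against sedentary 0 of the 8 were called in DTR- mice, with 0.00702% of genes called in either direction, 0 members at an unadjusted p under 0.05 and 0 called by DESeq2. In DTR+ quadriceps the called members were lower at day 1 and higher at day 7 than when sedentary. Its sedentary libraries had 21.4% to 23.5% mitochondrially encoded counts and 14701 to 14745 detected genes. Its day 1 libraries had 5.5% to 6.3% and 23450 to 26524 genes. In DTR- mice the shares were 7.9% to 12% when sedentary and 5.4% to 6.6% at day 1. Recovery time and these library differences cannot be told apart. At day 1 Psmb8, Psme1, Psme2 and Psmb6 were called lower than in sedentary DTR+ mice, with log2 fold changes of -1.34 ± 0.32, -0.78 ± 0.24, -1.61 ± 0.29 and -1.85 ± 0.14, where 18.1% of genes were called lower. For Psme1 the call was lost without scaling factors (-0.24) and without either sedentary DTR+ library (-0.77 and -0.79). Psmb9 (-0.38 ± 0.52), Psmb10 (-0.47 ± 0.34), Psmb5 (-0.26 ± 0.15) and Psmb7 (0.03 ± 0.15) did not pass. All 11 other 20S genes were called lower as well (median -1.06, against 0.28 over all genes). Without scaling factors 7 of them were called lower (median -0.52 over the 11), a setting that moved the median of all genes to 0.81 and turned the split of calls from 3456 higher and 2580 lower to 5590 and 1456. In DTR- mice at day 1 the split was 1163 higher and 1174 lower with the factors, and 2112 and 483 without.

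At day 7, DTR+ mice had more immunoproteasome transcripts than sedentary DTR+ mice as well. Psmb8 was higher by 1.91 ± 0.36, Psmb10 by 1.98 ± 0.38, Psme1 by 1.16 ± 0.27 and Psme2 by 1.36 ± 0.32 on the log2 scale (edgeR, adjusted p = 0.0118, 0.0131, 0.0396 and 0.0446), where 0.632% of all genes were called higher. Psmb9 was at 2.24 ± 0.57 with an adjusted p of 0.0651. These 4 calls rested on few libraries. Without DTR+ day 7 replicate 3 the log2 fold changes were 0.72 for Psmb8, 0.90 for Psmb10, 0.47 for Psme1 and 0.41 for Psme2 and 0 were called; without DTR+ day 7 replicate 2 Psmb8 was at 2.56, Psmb10 at 2.60 and Psmb9 at 3.00. Without sedentary DTR+ replicate 2 or replicate 3, 1 was called each time. Psmb6 (-0.05 ± 0.15), Psmb5 (-0.07 ± 0.16) and Psmb7 (0.00 ± 0.17) did not pass, nor did any of the 11 other 20S or the 18 19S genes pass, whereas B2m (1.73), Tap1 (2.63) and Irf1 (2.90) did and Nlrc5 (1.73) did not. Cell markers moved with these genes: T and NK cell markers summed to 25.1 to 69.1 CPM at day 7 against 7.04 to 8.98 CPM, leukocyte markers to 22.3 to 51.5 against 7.86 to 10.6 CPM and macrophage markers to 291 to 527 against 205 to 237 CPM. Their part in the difference was not tested.

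The genotype difference itself was tested across times. From day 1 to day 7 it grew by 3.17 ± 0.48 for Psmb8, 2.60 ± 0.76 for Psmb9, 2.60 ± 0.49 for Psmb10, 1.59 ± 0.35 for Psme1 and 2.74 ± 0.43 for Psme2 on the log2 scale, and by 1.32 ± 0.20 for Psmb6. All 6 were called (edgeR, adjusted p from 1.85e-04 to 0.0229), against 7.60% of all genes called higher in this test, and Psmb5 (0.18) and Psmb7 (-0.22) were not. Without DTR+ day 7 replicate 3, 3 of the 5 immunoproteasome genes passed: Psmb8 was at 1.97, Psmb10 at 1.50 and Psme2 at 1.78, while Psme1 at 0.89 and Psmb9 at 0.89 did not pass. The call for Psmb9 was also lost without either DTR- day 7 library, DTR+ day 1 replicate 1 or 2 or DTR- day 1 replicate 2, with log2 values of 2.01 to 2.72. From sedentary to day 7 the difference grew by 2.08 ± 0.50 for Psmb8, 2.67 ± 0.81 for Psmb9, 2.34 ± 0.52 for Psmb10, 0.92 ± 0.37 for Psme1 and 1.63 ± 0.45 for Psme2. All 5 had an unadjusted p under 0.05 and 0 passed adjustment by edgeR, where 0.0772% of genes did; DESeq2 called Psmb8 and Psmb10. Without DTR+ day 7 replicate 2 all 5 passed, and without replicate 3 none did by edgeR, with Psmb8 at 0.89, Psmb9 at 0.99, Psmb10 at 1.25, Psme1 at 0.23 and Psme2 at 0.68. Psmb6 showed no such growth (0.11 ± 0.21), having been as high in sedentary as in day 7 DTR+ mice.

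In the training experiment, sedentary DTR+ mice had 28.6, 36.3 and 18.5 CPM of Psmb8 against 11.8, 12.9 and 9.98 CPM in DTR- mice. The groups did not overlap and the log2 fold change was 1.35 ± 0.33, but the adjusted p was 0.295 by edgeR, in a comparison with 0.0477% of genes called. Psmb9 was at 13.6, 17.4 and 5.06 CPM against 4.49, 5.34 and 4.74 CPM, with overlap and a log2 fold change of 1.43 ± 0.45 (edgeR, adjusted p = 0.601). Those 2 had an unadjusted p under 0.05, edgeR called 0 of the 8 and DESeq2 called Psmb8. Psmb10 (0.33), Psme1 (0.32) and Psme2 (0.53) had smaller log2 fold changes. Macrophage markers summed to 282 to 314 CPM in these DTR+ mice against 178 to 195 CPM, and leukocyte markers to 28.5 to 38.1 against 23.6 to 23.9 CPM.

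After 2 weeks of training the catalytic subunits separated the genotypes. Psmb8 was at 45.6, 85.1 and 40.7 CPM in DTR+ mice against 11.4, 16.9 and 17.7 CPM in DTR- mice, a log2 fold change of 1.95 ± 0.32 (edgeR, adjusted p = 0.00246). Psmb9 was at 20.2, 46.0 and 25.7 CPM against 3.81, 9.33 and 8.67 CPM, a log2 fold change of 2.13 ± 0.43 (edgeR, adjusted p = 0.0153). Psmb10 was at 23.6, 46.0 and 30.2 CPM against 12.8, 12.9 and 14.2 CPM, a log2 fold change of 1.38 ± 0.29 (edgeR, adjusted p = 0.0244). In all 3 every DTR+ library was above every DTR- library, and DTR+ replicate 2 was the highest. Psme1 (48.2, 83.2 and 71.8 CPM against 30.5, 47.2 and 41.7 CPM) and Psme2 (33.7, 53.5 and 41.8 CPM against 22.4, 27.0 and 21.1 CPM) did not overlap either. Their log2 fold changes of 0.82 ± 0.24 and 0.93 ± 0.26 did not pass adjustment (edgeR, adjusted p = 0.173 and 0.129). So 3 of 5 were called higher where 0.620% of all genes were. The calls for Psmb9 and Psmb10 were lost without DTR+ replicate 2 (log2 fold changes of 1.69 and 1.04), DTR- replicate 1 (1.81 and 1.33) or DTR- replicate 2 (2.34 and 1.36), and that for Psmb10 also without DTR- replicate 3 (1.45).

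Unlike at day 7 of the acute experiment, the constitutive core did not pass the test in trained mice, though the difference between the experiments was not tested. Psmb5, Psmb6 and Psmb7 had log2 fold changes of 0.06 ± 0.17, -0.05 ± 0.20 and 0.12 ± 0.19. Of the other lists, 0 of 11 other 20S, 0 of 18 19S and 0 of 8 assembly and activator genes were called. Psmb6 was at 264, 276 and 279 CPM in DTR+ and at 291, 306 and 283 CPM in DTR- trained mice. Peptide loading did pass: 5 of 9 genes were called higher, with Tap1 at 3.65 ± 0.43 (edgeR, adjusted p = 5.12e-05), B2m at 1.50 ± 0.21 and Tapbpl at 2.30 on the log2 scale, and Tap2 and Tapbp completing the count. Of the interferon-gamma signalling genes, Irf1 (2.35) and Nlrc5 (3.70) were called higher, as was Irf8. T and NK cell markers summed to 10.3 to 16.6 CPM against 4.19 to 7.85 CPM, with 1 or 2 of 10 at 0 in each DTR+ library, leukocyte markers to 44.4 to 58.3 against 36.8 to 40.9 CPM and macrophage markers to 311 to 423 against 260 to 341 CPM. Their part in the difference was not tested.

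Training moved few of these genes within a genotype. In DTR- mice 0 of the 8 were called, 0 had an unadjusted p under 0.05 and DESeq2 called 0, where edgeR called 0.103% of all genes. In DTR+ mice Psmb10 was called higher than in sedentary DTR+ mice (12.7, 16.1 and 12.5 CPM), by 1.20 ± 0.29 on the log2 scale (edgeR, adjusted p = 0.0356), where 0.978% of all genes were. Psmb8 (0.96 ± 0.31), Psmb9 (1.22 ± 0.41) and Psme1 (0.83 ± 0.24) were not called, with adjusted p-values of 0.129, 0.144 and 0.0815, and DESeq2 called Psmb10 and Psme1. The Psmb10 call was lost without sedentary DTR+ replicate 1 (1.12) or 3 (1.10) or trained replicate 2 (0.87), while 4 genes were called without sedentary replicate 2. Tap1 (2.39), B2m (1.02), Irf1 (1.88) and Nlrc5 (2.10) all passed in DTR+ mice. The growth of the genotype difference with training was 0.60 ± 0.45 for Psmb8, 0.70 ± 0.62 for Psmb9, 1.05 ± 0.42 for Psmb10, 0.50 ± 0.34 for Psme1 and 0.40 ± 0.37 for Psme2. None of the 8 passed by edgeR, which called 0.270% of all genes, 1 (Psmb10) had an unadjusted p under 0.05 and DESeq2 called 0.

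Trained DTR+ mice given antibody to interferon-gamma had lower levels of the exchanged catalytic subunits than those given IgG. Psmb8 was at 16.1, 17.7 and 17.1 CPM with the antibody against 36.3, 61.6 and 53.8 CPM with IgG, a log2 fold change of -1.57 ± 0.18 (edgeR, adjusted p = 2.25e-04). Psmb9 was at 4.54, 5.95 and 6.27 CPM against 13.9, 29.6 and 32.6 CPM, a log2 fold change of -2.17 ± 0.29 (edgeR, adjusted p = 9.53e-04). Psmb10 was at 14.3, 16.3 and 15.1 CPM against 25.0, 27.0 and 23.3 CPM, a log2 fold change of -0.72 ± 0.16 (edgeR, adjusted p = 0.0462). In each of the 3, all antibody libraries were below all IgG libraries, and 3 of 5 immunoproteasome genes were called lower where 0.715% of all genes were. The call for Psmb10 was lost with DESeq2 (adjusted p = 0.0772) and without any 1 of 5 of the 6 libraries, at log2 fold changes of -0.76 to -0.68.

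The activator genes did not pass the test under the antibody. Psme1 was at 38.0, 39.0 and 44.0 CPM against 55.2, 49.8 and 51.9 CPM, a log2 fold change of -0.38 ± 0.13 (edgeR, adjusted p = 0.236). Psme2 was at 29.9, 27.5 and 19.1 CPM against 32.2, 30.9 and 35.3 CPM, a log2 fold change of -0.36 ± 0.17 (edgeR, adjusted p = 0.491). Neither pair of groups overlapped. Psmb5, Psmb6 and Psmb7 had log2 fold changes of -0.04 ± 0.10, 0.02 ± 0.09 and 0.07 ± 0.10, with libraries from 297 to 313 CPM for Psmb6 in both arms. None of the other 20S genes was called, whereas 5 of 9 peptide-loading genes were lower, among them Tap1 (-2.68 ± 0.18, edgeR, adjusted p = 1.15e-06), Tap2 (-1.73) and B2m (-0.99 ± 0.09). Of the signalling genes, Irf1 (-2.18 ± 0.27) and Nlrc5 (-2.72 ± 0.32) were called lower. Leukocyte markers moved in the same direction, at 29.0 to 41.7 CPM with the antibody against 55.2 to 56.8 CPM, as did macrophage markers (203 to 321 against 352 to 391 CPM) and T and NK cell markers (4.54 to 5.54 against 6.36 to 12.9 CPM). The part of these cells in the fall was not tested.

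In aged mice no member was called between the antibodies, and no gene of the table was (0% called by edgeR, with 64 genes and 0 members at an unadjusted p under 0.05, and 0 by DESeq2). Psmb8 was at 27.5 and 27.9 CPM with IgG and at 21.3 and 3.82 CPM with anti-IFN-gamma, which do not overlap, with a log2 fold change of -0.79 ± 1.16. Psmb9 was at 7.54 and 8.88 CPM against 4.78 and 0.528 CPM, with a log2 fold change of -1.28 ± 1.34. The low antibody library, replicate 3, was low in all 8 genes: it had 30.5 CPM of Psmb5, 99.3 CPM of Psmb6 and 15.6 CPM of Psmb7, the lowest of all 61 libraries in each. Psmb10 (27.0 and 5.01 CPM against 8.22 and 15.3 CPM) and Psme1 (50.9 and 10.6 CPM against 32.4 and 44.2 CPM) overlapped, as did Psme2 (47.7 and 4.09 CPM against 25.4 and 49.9 CPM, log2 fold change -0.23 ± 1.34). The other antibody library, replicate 1, had 14.0% mitochondrially encoded counts, against 3.3% in replicate 3 and 4.8% and 8.2% with IgG. Its Psmb6 was at 648 CPM, against 262 and 534 CPM in the IgG libraries. Aged and young mice were never in the same experiment, and their levels were not compared by a test.

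Ratios of an immunoproteasome subunit to its constitutive counterpart within a library do not depend on library scaling. Per kilobase of exon, Psmb8 over Psmb5 had group means between 0.0128 and 0.0266 in wild-type muscle. It was 0.0992 ± 0.018 (SD, n = 2) in sedentary DTR+ mice of the acute experiment against 0.0339 ± 0.005 (SD, n = 3), and at day 7 it was 0.199 and 0.534 in the DTR+ libraries against 0.0302 and 0.0334. Trained DTR+ mice had 0.130 ± 0.051 (SD, n = 3) against 0.0357 ± 0.00969, and IgG and anti-IFN-gamma gave 0.112 ± 0.0247 and 0.039 ± 0.0024 (SD, n = 3 each). The size of a ratio depends on the length given to each gene, though the order of groups within it does not. With the longest transcript in place of the union of exons, Psmb8 over Psmb5 in the DTR+ libraries at day 7 was 0.353 and 0.947.

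Psmb9 over Psmb6 did not separate sedentary mice of the acute experiment, where Psmb6 was itself high: 0.00575 in DTR+ and 0.00686 in DTR- mice, with overlap. At day 7 it was 0.00922 and 0.0443 against 0.00464 and 0.00656, and its highest group mean, 0.0572 ± 0.0247 (SD, n = 3), was in trained DTR+ mice, against 0.0126 ± 0.00515. IgG gave 0.0429 and anti-IFN-gamma 0.00933. Psmb10 over Psmb7 exceeded 1 in 1 library, at 1.89 in DTR+ replicate 3 at day 7, and the other DTR+ library had 0.534 against 0.167 to 0.214 in DTR- mice. It was 0.525 against 0.223 in trained mice and 0.451 with IgG against 0.260 with anti-IFN-gamma. In aged mice Psmb8 over Psmb5 was 0.0534 and 0.0744 with IgG against 0.0334 and 0.0390 with the antibody. Psmb9 over Psmb6 was lower with the antibody too (0.00272 and 0.00377 against 0.00851 and 0.0148). Psmb10 over Psmb7 was higher (0.413 and 0.646 against 0.238 and 0.251). Aged antibody replicate 3 had 4 counts of Psmb9, 38 of Psmb10 and 118 of Psmb7, the lowest of all libraries, which limits these ratios. None of these ratios was tested.

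**Figure D4:**
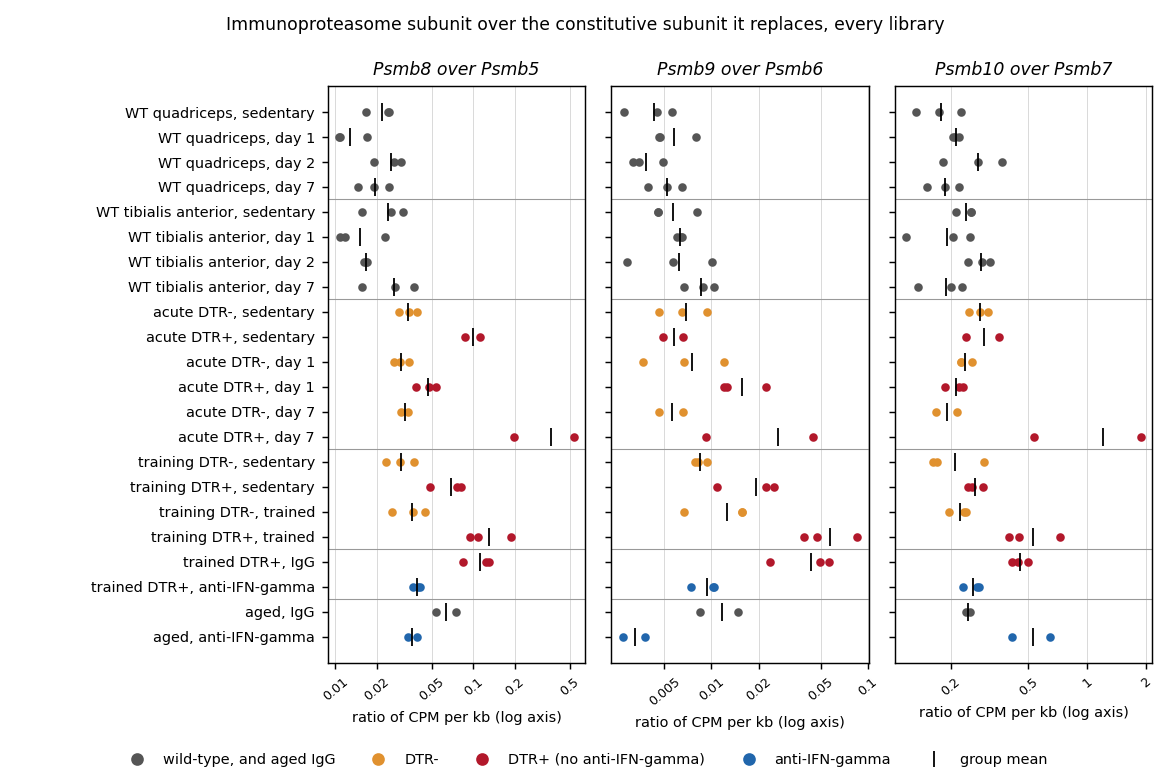
Ratios Psmb8 to Psmb5, Psmb9 to Psmb6 and Psmb10 to Psmb7, each as CPM per kilobase of exon within a library (log axis), in the 22 groups; each point is a library and each tick a group mean. Psmb8 to Psmb5 is lowest in wild-type muscle, with group means up to 0.0266, and reaches 0.534 in DTR+ muscle at day 7.

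The 5 immunoproteasome genes varied together over the 61 libraries. After centring each gene within its experiment, Pearson correlations of log2 CPM between pairs of the 5 were 0.72 to 0.84. Psmb8 had 0.25 with Psmb5, 0.55 with Psmb6 and 0.28 with Psmb7, while Psmb5 and Psmb7 had 0.88 with each other and Psmb6 had 0.83 with Psme2. Of 11639 genes ranked in the same way against the mean of the 5, those most alike included B2m (0.951), AW112010 (0.899), H2-K1 (0.886), Ly6a (0.883), Ifitm3 (0.880), Igtp (0.871) and Ifit3 (0.861). Over the 22 group means, B2m was at 0.962 and Ifit3 at 0.973. These are descriptions over points that share libraries, depth and scaling. Aged anti-IFN-gamma replicate 3 was the lowest of the 61 libraries in each immunoproteasome and constitutive gene. It had 30.5 CPM of Psmb5, 15.6 of Psmb7, 99.3 of Psmb6 and 4.09 of Psme2. Replicate 1 of that group had 145, 131, 648 and 47.7 CPM. The part of replicate 3 in these correlations was not tested. H2-K1 and Igtp have close relatives, so their reads are uncertain as to gene.

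Psmb8 and leukocyte content were set side by side in every library. In sedentary DTR+ mice of the acute experiment Psmb8 was at 36.5 and 42.5 CPM with leukocyte markers at 7.86 and 10.6 CPM, and in trained mice with anti-IFN-gamma it was at 16.1 to 17.7 CPM with the markers at 29.0 to 41.7 CPM. Trained mice with IgG had 36.3 to 61.6 CPM of Psmb8 with leukocyte markers at 55.2 to 56.8 CPM. T and NK cell markers were highest, at 69.1 CPM, in the library with the most Psmb8. An aged library with IgG, from another experiment, had 25.3 CPM of them with Psmb8 at no more than 27.9 CPM. The part of these cells in the Psmb8 level was not tested.

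**Figure D5:**
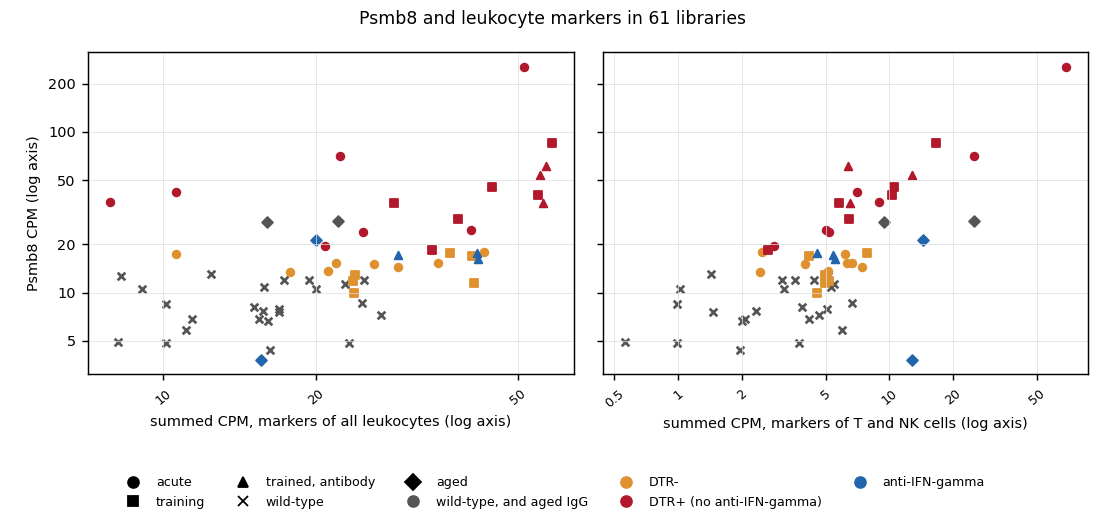
Psmb8 (CPM) against the summed CPM of 4 general leukocyte markers and of 10 T and NK cell markers in the 61 libraries, coloured by genotype and antibody; each point is a library. The day 7 DTR+ libraries lie at 25.1 and 69.1 CPM of T and NK markers, and sedentary DTR+ libraries of the acute experiment combine 36.5 and 42.5 CPM of Psmb8 with at most 10.6 CPM of leukocyte markers.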

How the data were processed

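Counts of 55011 genes in 61 libraries of whole muscle were taken as deposited. The authors mapped reads with STAR 2.7.3a (build mm10) and made the counts with featureCounts, per the submitters' processing notes. The counter's version, annotation and strand setting are not stated in the labels. Per the labels' protocols, libraries were made from 2 ng of TRIzol-extracted RNA. Levels are counts over the library's total (CPM). Of the symbols, 52936 matched GENCODE vM21, which gave the coordinates and exon lengths; promoters came from RefSeq on GRCm38.p6, with 7 of the 8 members matched.

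Each experiment was fitted alone (edgeR 4.0.16, R 4.3.3, quasi-likelihood F test, TMM factors, filterByExpr with a minimum count of 10 and total of 15); the muscles were compared in a fit of all wild-type libraries. P-values were adjusted by Benjamini-Hochberg over all genes of a comparison, and a gene was called at an adjusted p under 0.05. Fitted log2 fold changes use the scaling factors, so they can differ in sign from CPM. The SE is the absolute log2 fold change over the square root of F. There were 20 comparisons of 2 groups and 3 interactions. Alternatives were other scaling, no filter, DESeq2 1.42.0, a length and GC trend, replicate blocks, only the groups compared and single libraries left out, plus 3 added after seeing the data. The scripts were tested on simulated data. In wild-type mice the animal number ties quadriceps to tibialis anterior: over 12 pairs, same-animal deviations correlated at -0.04 to 0.08. All members were tested in every comparison and are given by value or count, with up to 3 passing genes of each list and Irf1, Nlrc5, Tap1 and B2m; the few others named were chosen after their values were seen. 1 gene of the lists is not reported here. Members and lists were chosen with earlier results of these data known. Depth ranged from 3359683 to 14445336 counts, which limits Psmb9 most.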

Additional observations from a re-analysis of the deposited data

Results flagged for a closer look

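The difference between DTR+ and DTR- quadriceps was larger at day 7 than at day 1 after acute exercise for 6 of the 8 genes, by an interaction test in edgeR. Of all genes, 7.60% were called higher in that test. On the log2 scale the growth was 3.17 for Psmb8, 2.60 for Psmb9, 2.60 for Psmb10, 1.59 for Psme1, 2.74 for Psme2 and 1.32 for the constitutive Psmb6. Without DTR+ day 7 replicate 3 it was 1.97 for Psmb8, 0.89 for Psmb9, 1.50 for Psmb10, 0.89 for Psme1 and 1.78 for Psme2. The call for Psmb9 was lost without DTR+ day 1 replicate 1 or 2 or DTR- day 1 replicate 2. The day 7 DTR+ libraries also had 20% to 21.8% mitochondrially encoded counts, against 5.4% to 6.6% at day 1. Their T and NK cell markers were at 25.1 and 69.1 CPM. The part of either was not tested, and leaving out the mitochondrial genes cannot test it.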

How the results depend on the processing

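Of 32 results in which a member was called, 18 were called under every alternative run, and of their 455 alternative values 0 reversed. All 5 immunoproteasome genes and Psmb6 at day 7 of the acute experiment were among the 18. Counts of called immunoproteasome genes moved most as follows. In sedentary acute mice the 3 became 1 without scaling factors and 1 to 3 with a library left out. At day 7 against sedentary DTR+ mice the 4 became 2 with a replicate block, 2 with the block and the length and GC trend removed, 0 with only the groups compared, and 0 to 5 with a library left out. The growth of the genotype difference from sedentary to day 7 went from 0 to 4 without the low-count filter and 2 with DESeq2, and 0 to 5 with a library left out; that from day 1 to day 7 went from 5 to between 3 and 5. In the training experiment, sedentary mice went from 0 to 2 without the filter and 1 with DESeq2. Trained mice went from 3 to between 1 and 3 with a library left out. Smaller moves were from 3 to 2 under anti-IFN-gamma, with DESeq2, with the replicate block, with or without the trend removed, and without any 1 of 5 libraries. At day 1 against sedentary DTR+ mice 3 became 2 without scaling factors and without either sedentary library. Trained against sedentary DTR+ mice went from 1 to 4 without the filter, 2 with the length and GC trend removed, 2 with DESeq2, 0 with only the groups compared and 0 to 4 with a library left out. Of the constitutive genes, Psmb6 at day 1 in DTR- mice went from 1 call to 0 under the block with the trend removed; at day 1 in DTR+ mice 1 gene was called higher without scaling factors and 1 with the trend removed (Psmb7 each time), and 2 lower with only the groups compared. The cause of these changes was not tested, except that leaving out a library or the other groups leaves fewer samples.

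Outside wild-type mice no label says whether a replicate number pairs samples, and the correlations could not decide it. The known same-animal pairs of wild-type mice themselves correlated at only -0.04 to 0.08. Same-numbered libraries correlated at -0.2 to 0.07 in the acute (31 pairs), -0.21 to 0.18 in the training (18 pairs) and -0.09 to -0.01 in the antibody experiment (3 pairs). With the replicate block the call for Psmb10 under anti-IFN-gamma was lost (log2 fold change -0.72, edgeR, adjusted p = 0.103). In wild-type mice the block was run only between sedentary quadriceps and sedentary tibialis anterior, where it changed no call of a member. The 2 aged pairs correlated at -0.77. With 2 libraries in a group the deviations mirror each other, so both pairs must give the same value. A crossed pairing, added after seeing the data, called 0 genes, as the fit without a block did, so it cannot decide the pairing. Genotypes at day 7 share 1 number, so no paired fit was run there.

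Depth limits Psmb9 most, since 3 counts are 0.208 to 0.893 CPM and its level was as low as 0.528 CPM. Groups of 2 libraries limit day 7 and the aged mice.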
